A study of Mus musculus with 18 samples.

Results

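Genes of the platelet and megakaryocyte lineage, 9 in number, were followed across hematopoietic stem cell (HSC) fractions of young and aged mice: Vwf, Selp, Itgb3, Itga2b, Gp1bb, Gp9, Pf4, Clu and Plek. They were taken by name from a written list, 9 of the 24421 gene symbols in the count table, and all 9 passed the expression filter of a mean of 1 CPM (counts scaled to a common library total with TMM factors). RNA came from bone marrow of Hoxb5-tri-mCherry mice on a C57BL/6J background, in which mCherry is made by cells that express Hoxb5. All 6 groups carry this reporter allele and none received a treatment. LT-HSCs were the mCherry-positive and ST-HSCs the mCherry-negative part of the HSC gate, and bulk-HSCs were sorted by the same surface markers without the reporter, so they hold both. Young mice were 2 to 3 months and aged mice 23 to 25 months old, and each fraction at each age has 3 libraries. Nothing in the sources used here says whether replicates came from separate animals, so p-values measure the spread between these libraries, which may be technical.

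Platelets bud from megakaryocytes, which descend from HSCs. At a wound, von Willebrand factor (Vwf) bridges collagen and the platelet receptor GPIb-IX-V, of which Gp1bb and Gp9 encode subunits. Itga2b (CD41) and Itgb3 (CD61) encode the chains of the platelet fibrinogen receptor, Selp (P-selectin) and Pf4 are alpha-granule proteins, and Plek (pleckstrin) is a protein kinase C substrate of platelets and leukocytes. Several of these genes are also read in HSCs themselves: Vwf and CD41 have been used to mark HSCs with platelet output, and P-selectin is a known age-associated HSC gene.

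Of the 9 genes, 2 were called higher with age in LT-HSCs, and 4 in each of the other fractions. For comparison, the calls took in 0.304% (LT), 0.625% (ST) and 1.53% (bulk) of all 12808 genes tested. These shares only describe the list, which was chosen with earlier results of these data known. Selp rose 22.9-fold in ST-HSCs and 17.2-fold in bulk-HSCs. Its 4.21-fold ratio in LT-HSCs was not called (edgeR adjusted p = 0.0534). Itgb3 and Plek rose in each fraction, between 2.23-fold and 4.01-fold. Vwf rose 3.56-fold in ST-HSCs and 2.12-fold in bulk-HSCs. In LT-HSCs, which stood at 652 ± 97.4 CPM when young (mean ± SD, n = 3), its ratio of aged to young was 1.32 and was not called. The main test called no difference in the age effect between fractions for any of these genes. No change with age was called for Itga2b, Gp1bb, Gp9, Pf4 or Clu. In bulk RNA, more cells that express a gene and more RNA per cell cannot be told apart.

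The libraries held 16495048 to 22973844 counts, so that 3 counts, taken as the smallest amount visible, were 0.131 to 0.182 CPM. These floors cover counting error only. Young libraries had 11548 to 13876 genes with a count and aged ones 13526 to 14133. Of 9653 genes whose median count was 200 or more, 1 to 163 were listed at 0 in a young library and 2 to 6 in an aged one. Young LT-HSC replicate 3 (163 such genes) and young ST-HSC replicate 3 (160 such genes) stood apart. Of the 81 values of the 9 genes in young libraries 6 were 0, and of the 81 in aged libraries 0. The HSC markers Kit, Hlf, Mecom and Procr were present in every library, with lowest levels of 1075, 834, 210.3 and 78.1 CPM. The summed level of 9 HSC markers was lower in aged LT-HSCs, at 3676 to 4030 CPM in young and 3256 to 3666 CPM in aged mice. In ST-HSCs and bulk-HSCs these sums overlapped between ages, and their part in the age differences was not tested. Hoxb5, whose reporter defined the sort, stood at 8.20 to 40.3 CPM in young and 18.4 to 26 CPM in aged LT-HSCs, above every ST-HSC library of the same age (0 to 3.83 CPM in young and 0.397 to 4.56 CPM in aged mice).

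Markers of other cells were measured beside the 9 genes. Of mature platelet markers, Gp6 was at 0 in all 18 libraries and Ppbp reached at most 8.80 CPM. The summed level of the 9 platelet markers, which include Pf4, ran from 28.0 to 58.4 CPM in young and 44.8 to 57.8 CPM in aged LT-HSCs, and from 57.9 to 89.7 CPM in young and 73.8 to 86.3 CPM in aged bulk-HSCs. In ST-HSCs these sums did not overlap, at 45.1 to 61.4 CPM in young and 67.6 to 80.0 CPM in aged mice, and their part in the age differences of ST-HSCs was not tested. The endothelial marker Cdh5, which matters here because endothelium makes Vwf and Selp, was at 0 in all 18 libraries, and the 6 endothelial markers together stood at 273 to 365 CPM in young and 256 to 375 CPM in aged libraries, mostly Tie1, which HSCs also express. The 9 neutrophil markers, nearly all of it Prtn3 with Mpo and Ctsg at 0 in all 18, were higher in every aged than in every young library of each fraction. Their sums were 67.9 to 118 CPM in young and 142 to 182 CPM in aged LT-HSCs, 47.4 to 129.5 and 146 to 170.3 CPM in ST-HSCs, and 46.0 to 64.8 and 123 to 127 CPM in bulk-HSCs, and their part in the age differences was not tested. Other marker sums also separated by age in single fractions. Erythroid markers were higher in aged ST-HSCs (3.58 to 4.82 CPM in young and 9.28 to 15.4 CPM in aged mice), macrophage markers lower in aged bulk-HSCs (25.6 to 41.6 and 4.74 to 7.44 CPM), and B cell markers, nearly all Cd79b with Pax5 and Ms4a1 at 0, lower in aged LT-HSCs (18.3 to 19.8 and 12.9 to 15.4 CPM). Over all libraries these 3 sums reached at most 52.8, 52.7 and 29.2 CPM, T cell markers stood at 0 to 21.6 CPM with Cd3e at 0, and the part of these cells in the age differences was not tested.

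The promoters of 4 of the genes are shown: Selp and Plek, which were called higher with age, and the platelet genes Gp9 and Pf4, for which no change was called. The age effects of these genes were not tested against each other. In ST-HSCs the 95% intervals of the ratio for Gp9 (0.666 to 2.91) and Pf4 (0.286 to 12.6) were wide. Each is the 250 bases before the RefSeq transcript start (GRCm38.p6, the build of the mm10 alignment), on the strand of the gene. The Plek window lies inside the span of Plek given below (chr11:16971206-17052381). That span is from the GENCODE M21 annotation and begins further upstream. RefSeq windows were found for 6 of the 9 genes (Selp, Itga2b, Gp1bb, Gp9, Pf4 and Plek). Capitals mark matches to the letters searched on both strands: GATAA for GATA factors, CAGGAAG or CCGGAAG for ETS factors, TGTGGT or TGCGGT for RUNX factors and TATAAA for the TATA box.
Selp, chr1:164115014-164115263, plus strand: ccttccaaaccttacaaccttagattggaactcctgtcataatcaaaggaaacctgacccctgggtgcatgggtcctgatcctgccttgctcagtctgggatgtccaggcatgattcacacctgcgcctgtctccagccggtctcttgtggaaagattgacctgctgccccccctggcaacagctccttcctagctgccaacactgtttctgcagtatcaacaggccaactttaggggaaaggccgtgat
Plek, chr11:17008719-17008968, minus strand: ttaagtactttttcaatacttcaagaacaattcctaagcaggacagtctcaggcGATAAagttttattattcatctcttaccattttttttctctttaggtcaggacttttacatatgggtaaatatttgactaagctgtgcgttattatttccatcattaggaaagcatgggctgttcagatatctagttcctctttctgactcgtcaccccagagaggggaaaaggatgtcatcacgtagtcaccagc
Gp9, chr6:87777820-87778069, plus strand: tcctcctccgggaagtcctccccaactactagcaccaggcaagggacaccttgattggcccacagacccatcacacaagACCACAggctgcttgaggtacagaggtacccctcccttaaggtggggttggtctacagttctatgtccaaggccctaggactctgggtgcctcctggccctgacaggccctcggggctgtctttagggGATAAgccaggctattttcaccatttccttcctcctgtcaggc
Pf4, chr5:90772185-90772434, plus strand: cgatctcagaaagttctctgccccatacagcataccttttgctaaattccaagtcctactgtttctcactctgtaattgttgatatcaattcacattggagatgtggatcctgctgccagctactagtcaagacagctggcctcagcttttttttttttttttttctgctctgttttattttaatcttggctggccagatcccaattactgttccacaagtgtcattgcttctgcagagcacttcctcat

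GATAA stood at bases -196 to -192 of Plek and -43 to -39 of Gp9, counted back from the RefSeq transcript start. ACCACA, the reverse complement of TGTGGT, stood at -171 to -166 of Gp9. Neither Selp nor Pf4 held any of these words in its window. Among 32807 promoter windows, also searched over the 250 bases before the start, 22.6% had the GATA word, 17% an ETS word, 18.6% a RUNX word and 12.4% the TATA word. Such matches are therefore frequent. A match is a description of letters, and binding was not measured here.

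Vwf (chr6:125546774-125686679, plus strand, protein coding) had the smallest p of the 9 genes between young LT-HSCs and ST-HSCs. In LT-HSCs it stood at 559.7, 643 and 754 CPM in young mice and 697, 829.8 and 1050.0 CPM in aged mice. ST-HSCs held 84.2, 69.9 and 102 CPM when young and 309.8, 251 and 349 CPM when aged. Bulk-HSCs held 211, 335 and 384 CPM when young and 650.1, 657 and 659.8 CPM when aged. Young ST-HSC libraries were the lowest of all, and the young and aged libraries overlapped in LT-HSCs but not in ST-HSCs or bulk-HSCs. In ST-HSCs Vwf rose with age by a log2 value of 1.83 ± 0.21 (SE, adjusted p = 0.000119, edgeR quasi-likelihood test with Benjamini-Hochberg adjustment over all genes, as for every adjusted p here unless another tool is named). The rise in bulk-HSCs was 1.08 ± 0.20 (adjusted p = 0.00784). In LT-HSCs the value was 0.40 ± 0.20 (adjusted p = 0.606), with a 95% interval of the ratio from 0.976 to 1.78. From the highest group to the lowest, the means were 859 ± 178 CPM in aged LT-HSCs, 656 ± 4.94 in aged bulk-HSCs, 652 ± 97.4 in young LT-HSCs, 309.9 ± 89.3 in young bulk-HSCs, 304 ± 49.3 in aged ST-HSCs and 85.3 ± 15.9 in young ST-HSCs (SD, n = 3 each). Aged ST-HSCs thus overlapped with young bulk-HSCs, and aged bulk-HSCs with young LT-HSCs.

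Selp (chr1:164115264-164150026, plus strand) encodes the adhesion receptor that activated platelets and endothelium use to catch leukocytes, and it had the largest age ratios of the 9 genes in ST-HSCs and bulk-HSCs. Young LT-HSCs held 41.7, 89.9 and 127 CPM and aged LT-HSCs 346, 335 and 410.1 CPM. In ST-HSCs the values were 9.59, 12.6 and 9.65 CPM in young and 208, 262 and 259 CPM in aged mice. Bulk-HSCs went with 4.92, 36.0 and 14.8 CPM in young and 318, 327 and 313 CPM in aged mice. Every aged library was above every young library of its fraction, and the lowest aged library of any fraction was above the highest young one. The log2 rise of Selp was 4.52 ± 0.51 for ST-HSCs (adjusted p = 0.000119), and bulk-HSCs followed with 4.10 ± 0.50 (adjusted p = 0.000241). For LT-HSCs it was 2.07 ± 0.45, a 4.21-fold ratio of means that missed the threshold narrowly (adjusted p = 0.0534). The LT-HSC difference passed in 6 of 10 other fits, with adjusted p from 0.000118 to 0.279, and in 0 of 6 fits that left out 1 library. The annotated lincRNA Gm16548 lies on the opposite strand within Selp, and the strand setting of the counting is not given in the sources used here. Gm16548 stood at 0 to 3.23 CPM in young and 1.28 to 6.92 CPM in aged libraries. Reads from the 2 genes cannot be told apart without strand.

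Itgb3 (chr11:104608000-104670476, plus strand) encodes the integrin beta chain that pairs with Itga2b in platelets and with Itgav in other cells. LT-HSC libraries stood at 207, 145 and 252 CPM when young and at 401, 472 and 476 CPM when aged. The ST-HSC libraries held 92.2, 84.4 and 106 CPM when young and 229, 309 and 310.5 CPM when aged. Young bulk-HSCs had 88.7, 97.0 and 90.0 CPM and aged bulk-HSCs 309, 313 and 328 CPM. Groups did not overlap between ages in any fraction, and young bulk-HSCs overlapped with young ST-HSCs rather than with young LT-HSCs. Itgb3 rose by a log2 fold change of 1.79 ± 0.17 in bulk-HSCs (adjusted p = 3.15e-05), 1.59 ± 0.17 in ST-HSCs (adjusted p = 8.48e-05) and 1.16 ± 0.17 in LT-HSCs (adjusted p = 0.00477). In a fit on the 6 LT-HSC libraries alone the last of these was not called (adjusted p = 0.0995).

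Itga2b (chr11:102453297-102470122, minus strand), the alpha chain of the same receptor, was flatter. In LT-HSCs it stood at 49.7, 58.5 and 99.99 CPM in young and 82.0, 126 and 145 CPM in aged mice. Young ST-HSCs held 78.3, 74.9 and 64.5 CPM and aged ST-HSCs 106, 112 and 139 CPM. For bulk-HSCs the values were 57.1, 123 and 106 CPM in young and 89.6, 113 and 110.7 CPM in aged mice. Only in ST-HSCs was every aged library above every young one. The log2 fold changes of 0.76 ± 0.28, 0.71 ± 0.28 and 0.13 ± 0.28 in the LT, ST and bulk fractions were not called (adjusted p = 0.370, 0.354 and 0.943). The 95% intervals of the ratio, which are not adjusted for the number of genes, ran from 1.11 to 2.59 in LT-HSCs and 1.07 to 2.50 in ST-HSCs. In bulk-HSCs the interval ran from 0.718 to 1.66. The sign in bulk-HSCs rests on young replicate 1, without which the log2 value was -0.13.

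The chains were compared per length, as RPKM (CPM per kilobase of exon). The ratio of Itgb3 to Itga2b RPKM was 2.83 ± 0.89 in young and 3.67 ± 0.76 in aged LT-HSCs, 1.21 ± 0.26 and 2.20 ± 0.30 in ST-HSCs, and 0.982 ± 0.39 and 2.83 ± 0.33 in bulk-HSCs (SD, n = 3). The ratio was higher in every aged than in every young library of bulk-HSCs (two-sided exact permutation p = 0.1) and likewise for ST-HSCs (exact permutation p = 0.1), while in LT-HSCs the ages overlapped (exact permutation p = 0.3). Among young cells LT-HSCs were above ST-HSCs and bulk-HSCs in every library (exact permutation p = 0.1 for each). With 3 libraries against 3, 0.1 is the smallest p the test allows, and over the 9 such comparisons the Benjamini-Hochberg values of the exact permutation tests were 0.15 or more. Counting only the longest transcript lowered every ratio by one factor, to 1.82 in young and 2.36 in aged LT-HSCs, 0.781 and 1.41 in ST-HSCs, and 0.631 and 1.82 in bulk-HSCs, so that which chain is higher in young ST-HSCs turned with the length used.

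**Figure D1:**
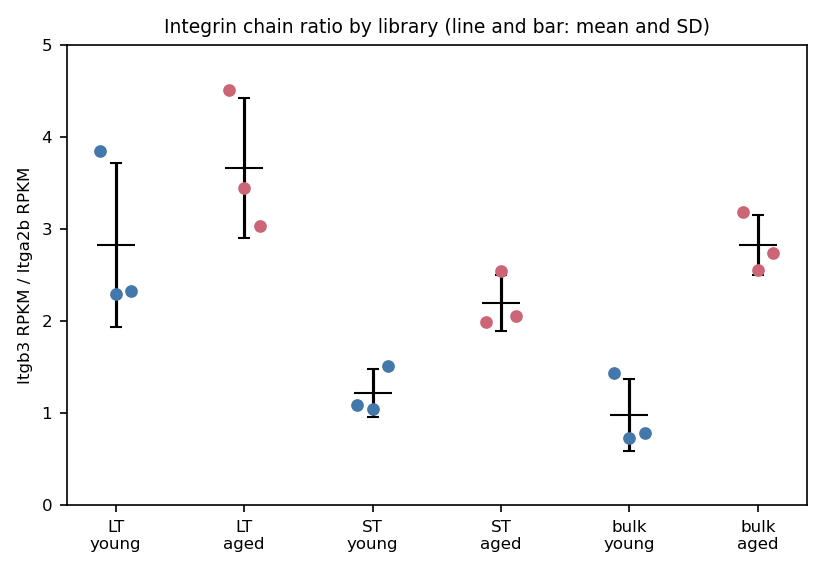
Ratio of Itgb3 RPKM to Itga2b RPKM (linear axis from 0) in each library, with young groups in blue and aged groups in red and the mean and SD of 3 libraries in black. Young ST-HSCs and young bulk-HSCs sit lowest, at means of 1.21 and 0.982, and aged LT-HSCs highest, at 3.67.

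Gp1bb (chr16:18620317-18622403, minus strand) and Gp9 (chr6:87778072-87779768, plus strand) encode the von Willebrand factor receptor subunits. Group means ran from 0.600 to 7.01 CPM for Gp1bb and from 8.66 to 19.9 CPM for Gp9. Gp1bb in LT-HSCs was at 0, 1.57 and 0.234 CPM in young and 2.29, 4.83 and 7.45 CPM in aged mice. ST-HSCs had 6.23, 1.40 and 0 CPM when young and 6.46, 3.14 and 5.71 CPM when aged, and bulk-HSCs 3.41, 0 and 9.06 CPM when young and 8.02, 7.19 and 5.81 CPM when aged. Thus 1 young library of each fraction had no Gp1bb count and every aged library had some, and the ages separated in LT-HSCs alone. The log2 values of 3.0 ± 1.85, 1.0 ± 1.72 and 0.75 ± 1.71 were not called (adjusted p = 0.737, 0.976 and 0.946). Gp1bb overlaps Sept5 on the same strand, so that reads may be split between them. Sept5 separated by age in LT-HSCs as Gp1bb did, at 0 to 1.13 CPM in young and 3.88 to 4.91 CPM in aged libraries, and also in ST-HSCs (0 to 1.86 and 2.68 to 6.95 CPM), and it overlapped in bulk-HSCs (0 to 3.95 and 0.861 to 9.07 CPM).

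Gp9 was detected in every library. LT-HSCs had 5.88, 11.3 and 8.85 CPM when young and 9.82, 15.3 and 16.5 CPM when aged. The ST-HSC values were 11.9, 12.2 and 7.72 CPM in young and 21.0, 9.64 and 13.6 CPM in aged mice, and those of bulk-HSCs 19.1, 14.4 and 5.65 CPM in young and 26.6, 18.9 and 14.1 CPM in aged mice. Young and aged libraries overlapped in each fraction. The log2 fold changes of 0.68 ± 0.49, 0.48 ± 0.49 and 0.61 ± 0.49 were not called (adjusted p = 0.816, 0.916 and 0.720), and the 95% intervals reached ratios of 3.36, 2.91 and 3.18.

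Pf4 (chr5:90772435-90773383, plus strand), a chemokine of platelet granules, was low and scattered. Young LT-HSCs stood at 12, 5.97 and 0 CPM and aged LT-HSCs at 8.29, 9.12 and 6.03 CPM. ST-HSCs had 8.17, 13.9 and 0 CPM when young and 16.4, 13.6 and 11.9 CPM when aged, and bulk-HSCs 12.9, 14.4 and 31.5 CPM when young and 9.43, 7.90 and 16 CPM when aged. Both zeros fell in the replicate 3 libraries named above as standing apart, and the ages overlapped in each fraction. The log2 values of 0.38 ± 1.25, 0.93 ± 1.25 and -0.82 ± 1.25 were not called (adjusted p = 0.990, 0.960 and 0.902). Without young LT-HSC replicate 3 the LT-HSC value was -0.20. Pf4 was the single one of the 9 genes whose mean was lower in aged cells of a fraction, at 11.1 ± 4.28 against 19.6 ± 10.3 CPM in bulk-HSCs.

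Clu (chr14:65968483-65981547, plus strand) encodes clusterin, a secreted chaperone that platelets also carry. LT-HSCs had 49.6, 50.2 and 70.5 CPM in young and 75.2, 74.4 and 146 CPM in aged mice. ST-HSCs had 5.86, 0 and 14.5 CPM when young and 22.8, 31.9 and 38.1 CPM when aged, and bulk-HSCs 19.8, 11.2 and 4.62 CPM when young and 90.3, 78.2 and 63.7 CPM when aged. Every aged library was above every young library in each fraction. The log2 values of 0.79 ± 0.78, 2.20 ± 0.82 and 2.71 ± 0.83 nevertheless missed the threshold (adjusted p = 0.911, 0.309 and 0.116). The Clu value in bulk-HSCs passed in the fit on only the groups compared (adjusted p = 0.0429) and missed in the 8 further fits that could test it, with adjusted p up to 0.141.

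Plek (chr11:16971206-17052381, minus strand) was the one gene of the list called lower in young LT-HSCs than in young ST-HSCs. LT-HSCs stood at 50.2, 65.6 and 72.3 CPM in young and 300.5, 262 and 192 CPM in aged mice. ST-HSCs had 102, 134 and 147 CPM when young and 341, 399 and 286 CPM when aged, and bulk-HSCs 55.5, 91.9 and 88.7 CPM when young and 245, 222 and 242 CPM when aged. Ages did not overlap in any fraction, and young ST-HSCs were above young LT-HSCs in every library. Plek rose by a log2 fold change of 2.0 ± 0.21 in LT-HSCs (adjusted p = 0.000378), 1.59 ± 0.21 in bulk-HSCs (adjusted p = 0.000508) and 1.42 ± 0.21 in ST-HSCs (adjusted p = 0.00181). Cnrip1 overlaps Plek on the opposite strand and went with 0.624 to 28.5 CPM in young and 2.03 to 19.1 CPM in aged libraries, with log2 values with age of -1.14, -0.21 and -0.48 that were not called (adjusted p = 0.849, 0.998 and 0.929).

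**Figure D2:**
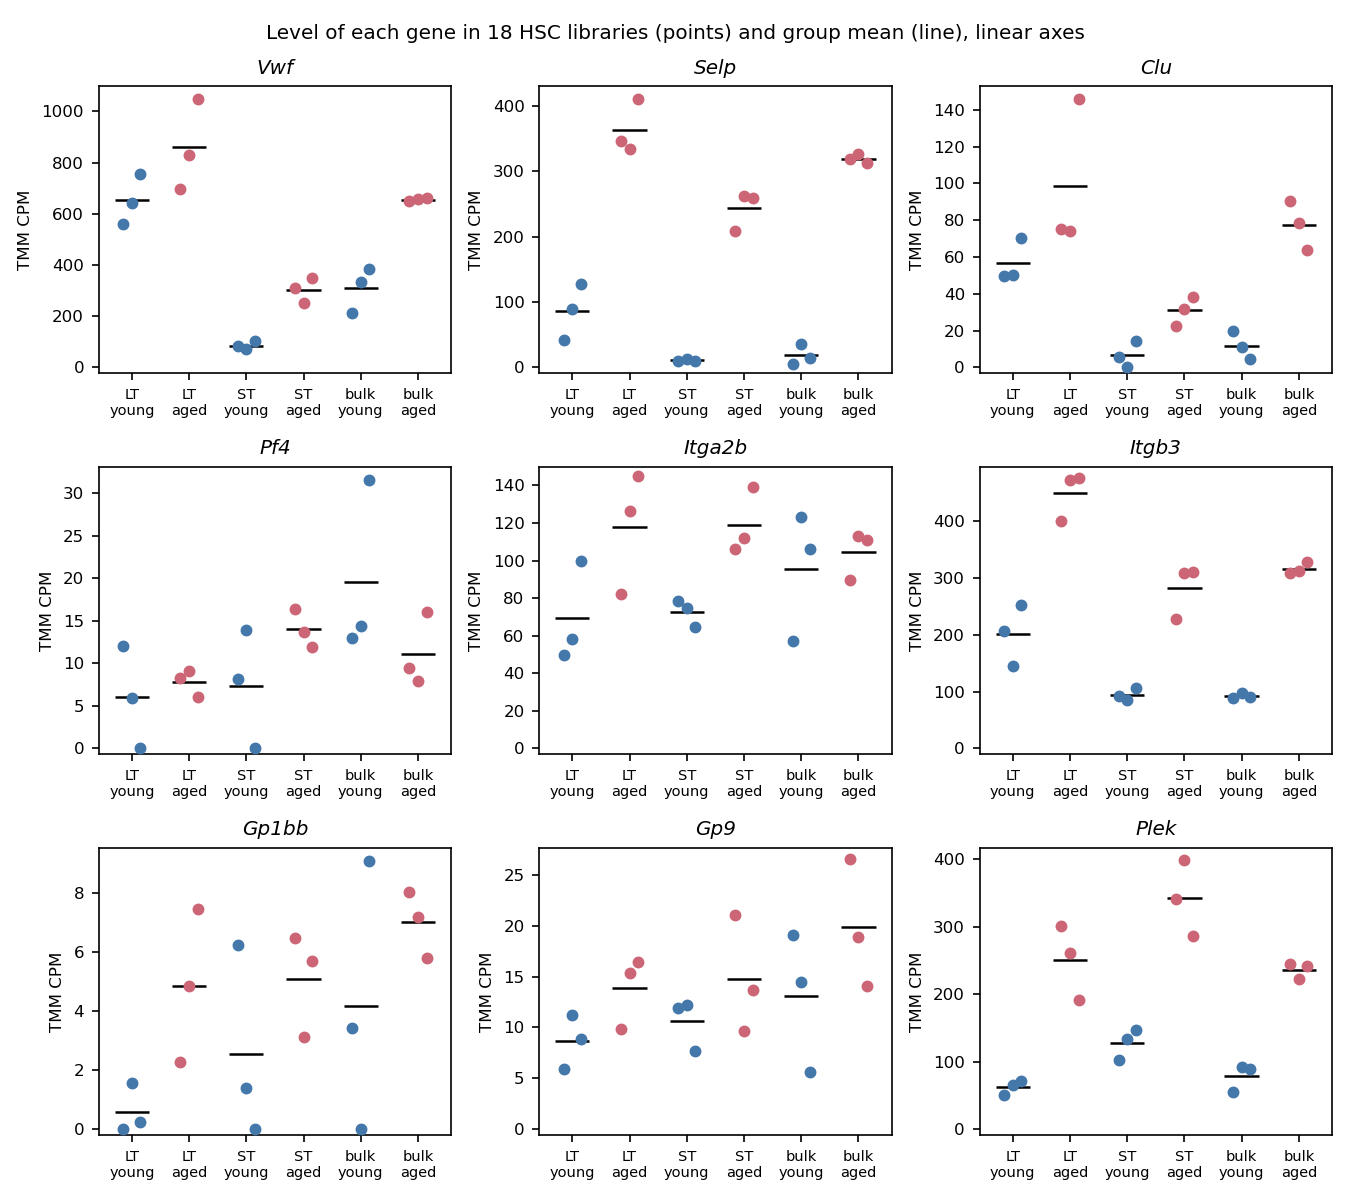
TMM-scaled CPM (linear axis, a panel per gene) of the 9 genes in each of the 18 libraries, young in blue and aged in red, with the group mean as a line. Selp, Itgb3, Plek and Clu separate by age in each fraction, Vwf in ST-HSCs and bulk-HSCs, Itga2b in ST-HSCs and Gp1bb in LT-HSCs. Clu, Itga2b and Gp1bb were not called with age in any fraction. Gp1bb, Gp9 and Pf4 stay under 32 CPM with wide scatter.

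Counted over the list, 2 of 9 genes rose with age in LT-HSCs (Itgb3 and Plek), and 4 of 9 did so in each of the other fractions (Vwf, Selp, Itgb3 and Plek in both), and 0 fell. Of all 12808 genes tested, 0.304%, 0.625% and 1.53% were called higher in aged cells of the LT, ST and bulk fractions. The list was chosen with earlier results of these data known, so these shares are a description. Every aged library was above every young one for 5, 6 and 5 of the 9 genes in the same order, against 10.2%, 10.2% and 13.4% of all genes. The median log2 fold change of the 9 genes was 0.79, 1.42 and 1.08 in the fractions in turn, beside 0.04, 0.02 and 0.03 over all genes tested. Detected genes ran from 11548 to 13876 in young and 13526 to 14133 in aged libraries. With this number as a covariate the called genes of the list were the same in each fraction. Of all genes, 23, 54 and 82 were called in that fit in either direction, in place of 57, 109 and 253. The number of detected genes goes with age in part, so this fit cannot separate detection from age. Leaving out any 1 library of the groups compared kept the counts at 2, 4 and 4, and leaving out both young replicate 3 libraries that stood apart kept those of LT-HSCs and ST-HSCs at 2 and 4.

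**Figure D3:**
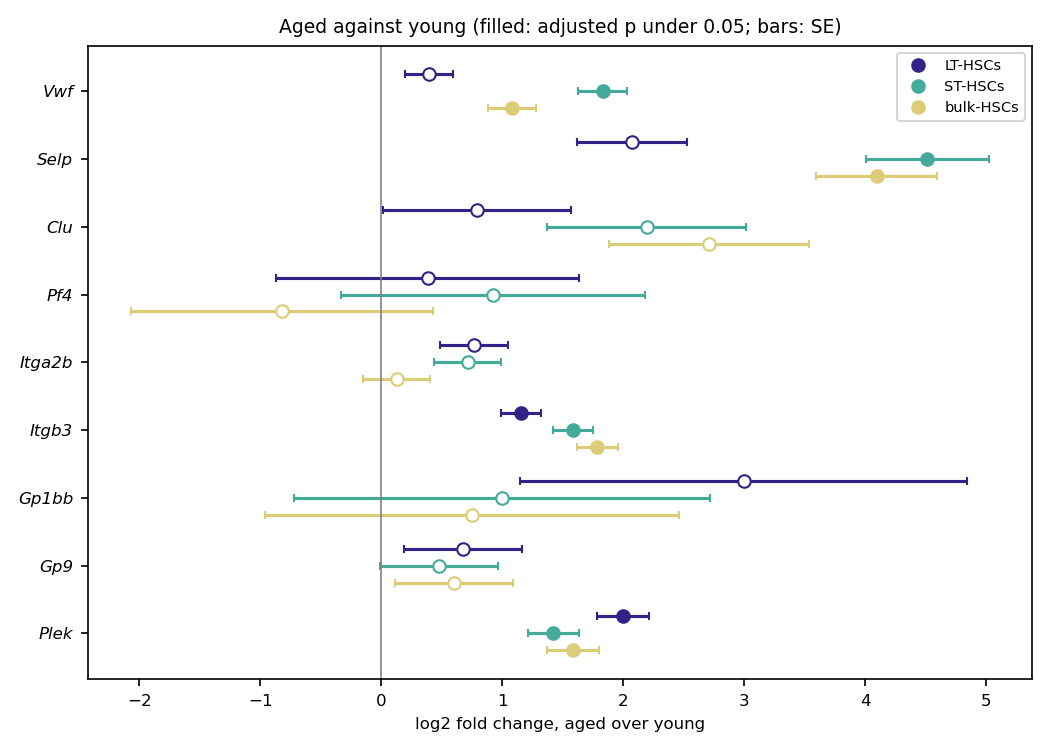
Log2 fold change of aged over young for each gene, a color per fraction, with the SE as bars and filled points at an adjusted p under 0.05. Itgb3 and Plek are filled in each fraction, Selp reaches 4.52 in ST-HSCs, and the bars of Gp1bb and Pf4 span more than 2 log2 units.

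The difference between LT-HSCs and ST-HSCs in young mice asks whether the list separates the reporter-defined fractions. In young mice Vwf (log2 fold change 2.93 ± 0.21, adjusted p = 9.55e-07), Selp (3.02 ± 0.48, adjusted p = 0.00522) and Itgb3 (1.10 ± 0.17, adjusted p = 0.00370) were higher in LT-HSCs, and Plek was lower (-1.03 ± 0.21, adjusted p = 0.0366). These are 4 of 9 genes, against 0.429% of all genes in either direction. In the fit on only these groups and in limma-voom Vwf alone kept its call, with adjusted p of 0.299 and 0.132 for Itgb3, 0.0617 and 0.171 for Selp and 0.380 and 0.393 for Plek. Of all genes these fits called 5 and 7, in place of 55. The ratios of LT-HSC to ST-HSC means were 7.64 for Vwf, 8.13 for Selp, 2.14 for Itgb3 and 0.491 for Plek. Clu was 56.8 ± 11.9 against 6.79 ± 7.31 CPM with no overlap, but was not called (log2 3.07 ± 0.85, adjusted p = 0.137), and passed when young ST-HSC replicate 2, its library at 0, was left out (adjusted p = 0.0412). Itga2b differed by a log2 value of -0.07 ± 0.28 (adjusted p = 0.979), and the 95% interval of its ratio was 0.627 to 1.46. Plek kept its call in 1 of 6 fits without 1 library (adjusted p from 0.0257 to 0.126): it lost it without young LT-HSC replicate 1, 2 or 3 and without young ST-HSC replicate 2 or 3. Without both young replicate 3 libraries that stood apart, 2 of 9 genes were called, Vwf and Itgb3, and Selp had an adjusted p of 0.0899.

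Against young bulk-HSCs, young LT-HSCs had higher Vwf (log2 1.07 ± 0.20, adjusted p = 0.0302) and Itgb3 (1.13 ± 0.17, adjusted p = 0.00652), 2 of 9 genes beside 0.273% of all genes. Selp was 86.3 ± 42.9 against 18.6 ± 15.9 CPM and missed narrowly (log2 2.21 ± 0.46, adjusted p = 0.0532), passing in 6 of 10 other fits (adjusted p from 0.000584 to 0.914). Without young bulk-HSC replicate 2, the highest for Selp at 36.0 CPM, Selp passed (adjusted p = 0.00161), as it did without young LT-HSC replicate 1 (adjusted p = 0.0284). The Vwf call was lost without young LT-HSC replicate 3 (adjusted p = 0.0784) or young bulk-HSC replicate 1 (adjusted p = 0.0668). Young ST-HSCs had lower Vwf than young bulk-HSCs (log2 -1.86 ± 0.21, adjusted p = 0.000605), 1 of 9 genes beside 0.164% of all genes, while Itgb3 differed by 0.03 ± 0.16 (adjusted p = 0.996). In fits on only the 2 groups compared, none of the calls of young bulk-HSCs held (adjusted p = 0.786 for Vwf and Itgb3 against LT-HSCs and 0.0999 for Vwf against ST-HSCs). Of all genes these fits called 0 against LT-HSCs and 1 against ST-HSCs. All 3 young comparisons share libraries with each other and with the age comparisons.

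In aged mice Vwf was the one gene of the list called between LT-HSCs and ST-HSCs (log2 1.5 ± 0.20, ratio of means 2.83, adjusted p = 0.0105), and the one gene of all those tested, 0.00781%. The call was lost without aged ST-HSC replicate 1 (adjusted p = 0.120), aged ST-HSC replicate 2 (adjusted p = 0.0619) or aged LT-HSC replicate 3 (adjusted p = 0.101). Itgb3 was 449.8 ± 42.6 in aged LT-HSCs and 283 ± 46.7 CPM in aged ST-HSCs with no overlap, and was not called by edgeR (log2 0.67 ± 0.16, adjusted p = 0.373). For Selp the aged means were 363 ± 40.8 and 243 ± 30.2 CPM (log2 0.58 ± 0.44, adjusted p = 1). Clu had 98.4 ± 40.9 and 30.9 ± 7.72 CPM without overlap (log2 1.67 ± 0.79, adjusted p = 1), and Plek 251 ± 55.0 and 342 ± 56.4 CPM (log2 -0.44 ± 0.21, adjusted p = 1). DESeq2 called Itgb3 beside Vwf (adjusted p = 0.0156), and limma-voom called Itgb3, Clu and Selp beside Vwf (adjusted p = 0.00421, 0.0115 and 0.0437). Of all genes DESeq2 called 55 and limma-voom 66 there. Between aged LT-HSCs and aged bulk-HSCs edgeR called 0 of 9 genes and 0% of all genes, with 1 of the 9 genes and 421 of all genes at an unadjusted p under 0.05. DESeq2 called 0 and limma-voom 1 (Itgb3) of the 9, beside 32 and 30 of all genes. Between aged ST-HSCs and aged bulk-HSCs edgeR also called 0 of 9 and 0% of all genes, with 2 of 9 and 346 of all genes at an unadjusted p under 0.05, although Vwf was at 304 ± 49.3 and 656 ± 4.94 CPM without overlap (log2 -1.11 ± 0.20, adjusted p = 0.271). DESeq2 and limma-voom each called Vwf there, with 41 and 24 of all genes called.

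**Figure D4:**
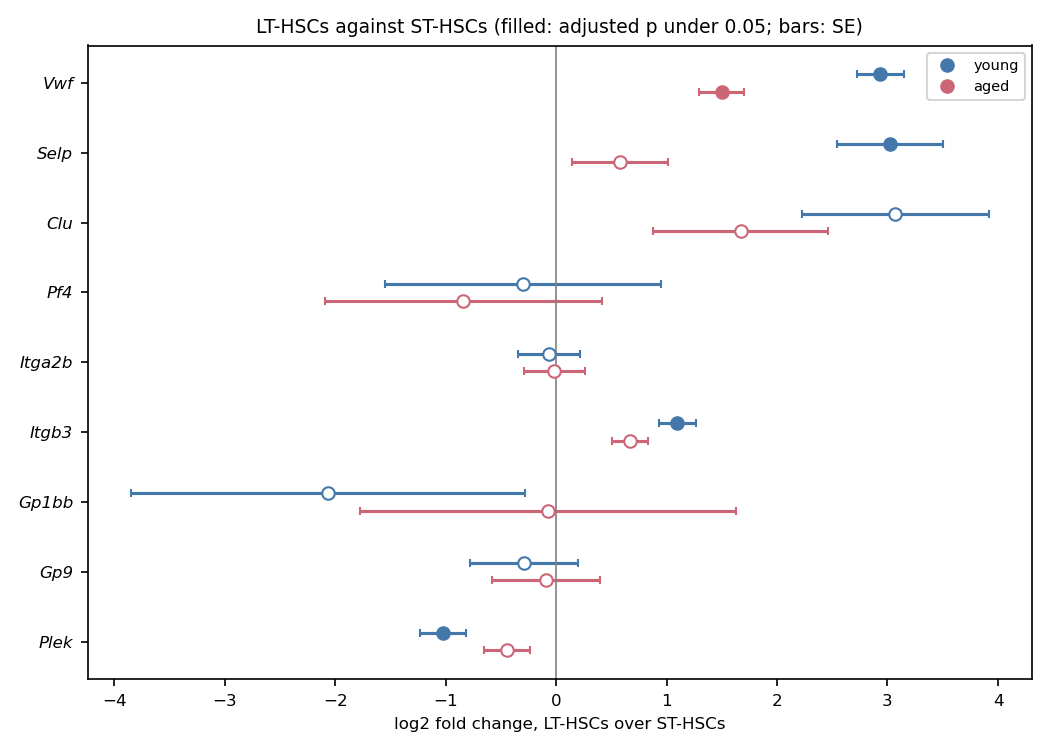
Difference of LT-HSCs from ST-HSCs (log2) for each gene in young and aged mice, with the SE as bars and filled points at an adjusted p under 0.05. In young mice Vwf and Selp lie near 3 and Plek at -1.03, and in aged mice Vwf alone is filled, at 1.5.

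Whether the age effect itself differed between fractions was tested as an interaction. Vwf had the smallest p of the 9 genes between LT-HSCs and ST-HSCs, where its age effect was lower by 1.43 ± 0.28 in LT-HSCs on the log2 scale, but it was not called after adjustment over all genes (adjusted p = 0.295). The Selp age effect was lower in LT-HSCs by 2.44 ± 0.63 than in ST-HSCs (adjusted p = 0.855) and by 2.02 ± 0.63 than in bulk-HSCs (adjusted p = 0.664). Plek leaned the other way, with an age effect higher in LT-HSCs than in ST-HSCs by 0.58 ± 0.29 (adjusted p = 1). In the 3 interaction tests edgeR called 0, 0 and 0 of the 9 genes for LT-HSCs against ST-HSCs, LT-HSCs against bulk-HSCs and ST-HSCs against bulk-HSCs, beside 0%, 0.00781% and 0.0625% of all genes. Without adjustment, p was under 0.05 for 2, 3 and 1 of the 9 genes and for 502, 746 and 740 of all genes. DESeq2 called Vwf in the first (adjusted p = 2.39e-05) and none of the 9 in the others, and limma-voom called none of them in any. Of all genes DESeq2 called 83, 122 and 128 and limma-voom 0, 0 and 0. Selp passed between LT-HSCs and bulk-HSCs without young bulk-HSC replicate 2 (adjusted p = 0.0253). A different size of the age effect between fractions is therefore not shown for any of the 9 genes by the main test.

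Per length of exon, the order of the genes changed with age. In young LT-HSCs Vwf was highest at 40.6 ± 6.07 RPKM, followed by Itgb3 at 34.2 ± 9.10, Selp at 19.5 ± 9.72, Clu at 16.5 ± 3.46, Plek at 14 ± 2.53, Itga2b at 12.7 ± 4.93, Gp9 at 9.83 ± 3.06, Pf4 at 8.30 ± 8.31 and Gp1bb at 0.288 ± 0.405. Vwf and Itgb3 overlapped across libraries there, as did neighbours from Itgb3 down to Pf4. In aged LT-HSCs Selp led at 82.4 ± 9.24 RPKM, ahead of Itgb3 at 76.2 ± 7.22, Plek at 56.0 ± 12.3, Vwf at 53.5 ± 11.1, Clu at 28.6 ± 11.9, Itga2b at 21.6 ± 5.94, Gp9 at 15.7 ± 4.04, Pf4 at 10.8 ± 2.22 and Gp1bb at 2.33 ± 1.24. Selp and Itgb3 overlapped, and so did Plek and Vwf. ST-HSCs were led by Plek at both ages, at 28.5 ± 5.09 RPKM when young and 76.3 ± 12.6 RPKM when aged, with Selp at 2.40 ± 0.390 and 55.1 ± 6.85 RPKM. With the longest transcript in place of all exons Vwf moved up to the second place in aged LT-HSCs.

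The rest of the lineage was read from a list of 78 further megakaryocyte and platelet genes, of which 72 could be tested. Of these, 4, 4 and 7 rose with age in the LT, ST and bulk fractions, beside 0.304%, 0.625% and 1.53% of all genes, and 0 fell, with median log2 fold changes of 0.17, 0.11 and 0.14. These further genes were also chosen with earlier results of these data known, so the counts only describe the list. Among 24 surface receptors tested, Itga6, a laminin receptor chain, rose in each fraction (log2 0.81 ± 0.16, 0.72 ± 0.16 and 0.89 ± 0.16 in the LT, ST and bulk fractions, adjusted p = 0.0270, 0.0390 and 0.00576), and F2rl3, a thrombin receptor, rose by 1.10 ± 0.20 in LT-HSCs and 0.79 ± 0.19 in bulk-HSCs (adjusted p = 0.0166 and 0.0425). Of 17 signalling genes tested, the adaptor Fyb rose in each fraction, from 36.4 ± 15.1 to 191 ± 5.97 CPM in LT-HSCs (log2 2.39 ± 0.30, adjusted p = 0.00152), with 1.83 ± 0.29 for ST-HSCs and 1.40 ± 0.29 for bulk-HSCs (adjusted p = 0.00367 and 0.0149). Rgs18, a regulator of G protein signalling in platelets, rose by 0.70 ± 0.14, 0.76 ± 0.14 and 0.73 ± 0.14 (adjusted p = 0.0316, 0.0116 and 0.0101). Of 10 secreted proteins tested 1 rose, Timp3, a metalloproteinase inhibitor, in ST-HSCs (1.54 ± 0.27, adjusted p = 0.00926) and also in the bulk fraction (1.41 ± 0.27, adjusted p = 0.00982). Of 9 cytoskeletal genes 2 rose in bulk-HSCs, the myosin light chain kinase Mylk (1.63 ± 0.20, adjusted p = 0.000241) and the myosin heavy chain Myh9 (0.40 ± 0.08, adjusted p = 0.0144).

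The 12 megakaryocyte transcription factors were all tested, and edgeR called 0 of them with age in any fraction. With 0.304%, 0.625% and 1.53% of all genes called higher, a count of 0 among 12 genes says nothing particular about them. Fli1, which drives many platelet genes, had log2 values of 0.16 ± 0.11, 0.39 ± 0.11 and 0.15 ± 0.11 in the LT, ST and bulk fractions (adjusted p = 0.807, 0.144 and 0.692). Gata1 was among the least precise, at -0.93 ± 1.74, -1.74 ± 1.75 and -2.43 ± 1.79 (adjusted p = 0.975, 0.916 and 0.674). Both are named after their values were seen. Between fractions of young mice 1 of the 72 genes was called, against 0.429%, 0.273% and 0.164% of all genes in the 3 comparisons: Mylk was higher in LT-HSCs, at 91.6 ± 10.9 CPM, than in ST-HSCs at 39.7 ± 9.07 CPM (log2 1.21 ± 0.20, adjusted p = 0.00703) and than in bulk-HSCs at 31.0 ± 4.76 CPM (log2 1.56 ± 0.20, adjusted p = 0.00248). Jam3, a junctional adhesion molecule, was next, at 40.0 ± 5.45 in young LT-HSCs and 16.4 ± 4.19 CPM in young ST-HSCs (adjusted p = 0.0529). In aged mice none of the 72 was called between fractions, the smallest adjusted p being that of Jam3 between LT-HSCs and ST-HSCs (log2 1.32 ± 0.28, adjusted p = 0.268).

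Further genes with small p that were not called in any comparison of fractions included Tgfb1, a platelet-stored growth factor (log2 -0.68 ± 0.20 in young LT-HSCs against ST-HSCs, adjusted p = 0.176, and -0.57 ± 0.20 against bulk-HSCs, adjusted p = 0.269), the actin crosslinker Flna (-0.26 ± 0.08 in young LT-HSCs against ST-HSCs, adjusted p = 0.176), and the tyrosine kinase Syk (-0.87 ± 0.31 in young LT-HSCs against bulk-HSCs, adjusted p = 0.281). Between young ST-HSCs and bulk-HSCs they included Jam3 (-1.19 ± 0.28, adjusted p = 0.131) and Myh9 (0.22 ± 0.08, adjusted p = 0.390). Clec1b was at 0 in every young bulk-HSC library and at most 2.23 CPM in other young ones, and no fold is given for it. In aged mice F5, coagulation factor V, had a log2 value of 1.96 ± 0.68 in LT-HSCs against ST-HSCs and -1.48 ± 0.67 in ST-HSCs against bulk-HSCs, Tln1 -0.16 ± 0.08 and Stim1 0.39 ± 0.19 in LT-HSCs against bulk-HSCs, and Zfpm1 -0.26 ± 0.10 in ST-HSCs against bulk-HSCs (adjusted p = 1 for each). LT-HSCs had a smaller age effect on Mylk than bulk-HSCs, by 1.61 ± 0.28, the smallest p of the list among the tests of a different age effect (adjusted p = 0.0741). Tbxas1, Runx1 and Zyx were also among the smallest p of those tests, with log2 differences of -0.50 ± 0.23, -0.92 ± 0.43 (LT-HSCs against ST-HSCs) and 0.39 ± 0.23 (ST-HSCs against bulk-HSCs), and were not called.

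**Figure D5:**
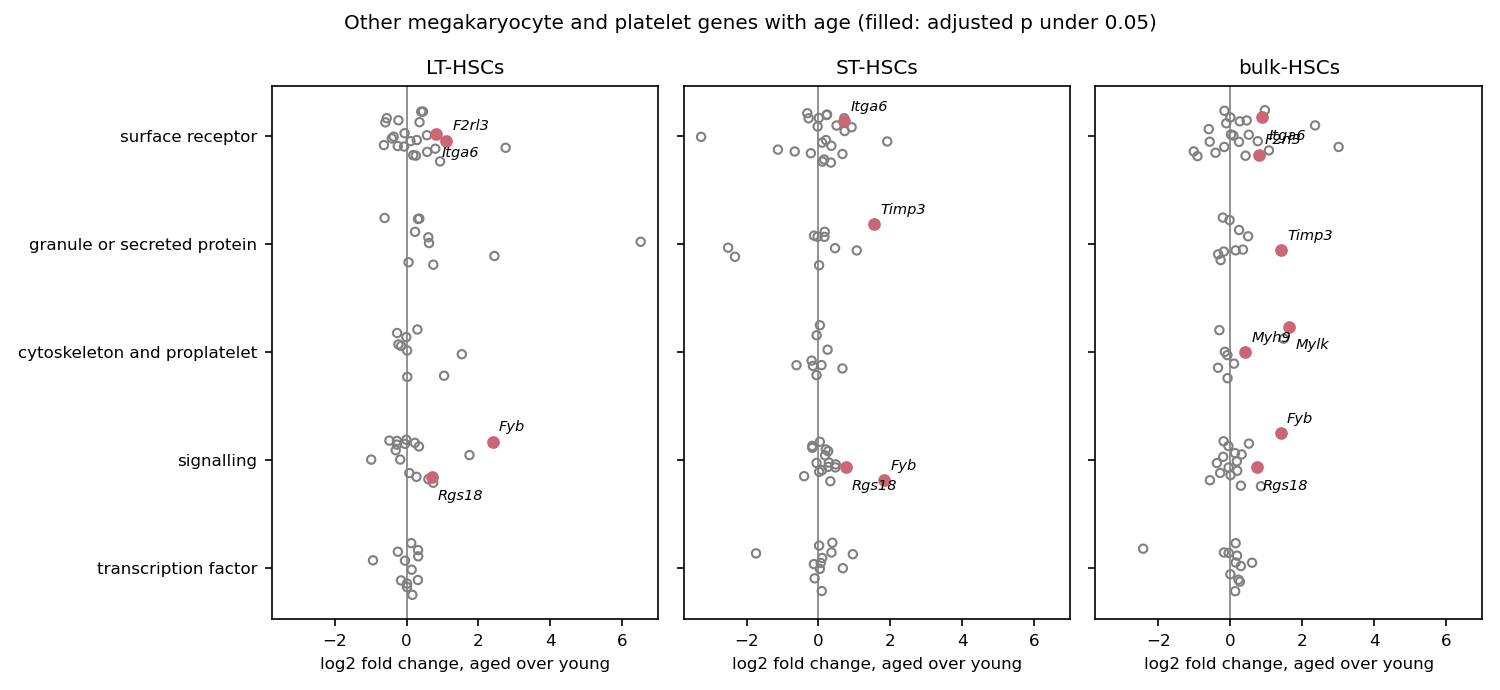
Log2 fold change of aged over young for the tested further megakaryocyte and platelet genes, a point per gene, in rows by role and a panel per fraction, with filled and named points at an adjusted p under 0.05. Clec1b, at 0 in every young bulk-HSC library, is not drawn. The filled points all lie to the right of 0, and the row of transcription factors holds none.

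Likeness of pattern was measured as the root mean square difference of z-scored log2(CPM + 0.5) over the 18 libraries, where 0 is an identical profile. Among all tested genes, Gda (0.230) and Clca3a1 (0.305) were nearest to Itgb3, and Clca3a1 (0.264) and Arhgap29 (0.305) to Selp, while Selp and Itgb3 were each among the 5 nearest of the other (0.332). Vwf had Apba1 (0.339) and Neo1 (0.429) nearest, and Clu had Fam46c (0.487) and Neo1 (0.492). Plek was nearest to Ndrg1 (0.404) and Spn (0.412), and Itga2b to Nptn (0.588) and Stt3b (0.591). For the low genes the nearest were Fbxo17 (0.497) and Galr3 (0.512) to Gp1bb, Gm10516 (0.579) and Slc12a5 (0.611) to Gp9, and Ikzf1 (0.336) and 1500009L16Rik (0.359) to Pf4. Among pairs of the 9 genes, Selp and Itgb3 were the closest (0.332), followed by Vwf and Clu (0.548), and Pf4 and Clu the farthest apart (1.51). These distances describe 18 libraries that share age, fraction and depth differences.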

How the data were processed

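HSCs were enriched by c-Kit, double sorted, and their total RNA was sequenced in 18 libraries made with a KAPA RNA HyperPrep kit with RiboErase. The authors mapped read pairs to mm10 with HISAT2, used SAMtools 1.7 and quantified with StringTie 1.3.4d (versions from the submitters' processing notes). They deposited whole-number counts per gene symbol without normalization. The annotation, the strand setting and the tool that turned StringTie output into counts are not given in the sources used here.

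Groups and replicate numbers came from the sample labels. After TMM scaling of the counts, those 12808 genes whose mean CPM reached 1 were tested with the quasi-likelihood test of edgeR 4.0.16 in R 4.3.3, with 6 group means, 12 residual degrees of freedom, contrasts, and Benjamini-Hochberg adjustment over all genes, called at an adjusted p under 0.05. Each SE is the size of the log2 fold change over the root of F, and 95% intervals use the SE with 12 degrees of freedom. The test itself adds prior degrees of freedom, so the intervals are wider than its p-values would give. The script was tested on simulated data. Alternatives were library size alone, RLE size factors, 3 other count filters, only the groups compared, a replicate block, DESeq2 1.42.0, limma-voom with quality weights (limma 3.58.1), a covariate for detected genes, and each library left out. After seeing the data, leaving out together both libraries with most well-detected genes at 0 was added. RPKM used union exon lengths of GENCODE M21, and exact permutation tests used scipy 1.17.1. Depth ran from 16495048 to 22973844 counts. The 9 genes, the 78 further genes and the markers were chosen with earlier results of these data known. By rule, the text names all 9 genes, of the 78 further genes the 4 with the smallest p in each comparison, for each of the 9 genes the 2 nearest in pattern, and annotated genes that overlap one of the 9. F2rl3, Fyb and Myh9 in bulk-HSCs, and Fli1 and Gata1, were named after their values were seen. Some genes that the rule or the marker lists cover are not reported here.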

Additional observations from a re-analysis of the deposited data

How the results depend on the processing

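With the fit on only the groups compared, the number of the 9 genes called was 1 in place of 2 with age in LT-HSCs, 1 in place of 4 for young LT-HSCs against ST-HSCs, 0 in place of 2 for young LT-HSCs against bulk-HSCs, 0 in place of 1 for young ST-HSCs against bulk-HSCs, and 1 in place of 0 for aged ST-HSCs against bulk-HSCs. Of all genes these fits called 9, 5, 0, 1 and 7, in place of 57, 55, 35, 21 and 0. These fits hold fewer libraries, and the cause was not tested further. DESeq2 called 3 in place of 2 for young LT-HSCs against bulk-HSCs, 2 for young ST-HSCs against bulk-HSCs, 2 for aged LT-HSCs against ST-HSCs, 1 for aged ST-HSCs against bulk-HSCs and 1 for the difference in age effect between LT-HSCs and ST-HSCs. Of all genes DESeq2 called 438, 308, 55, 41 and 83 in these comparisons, in place of 35, 21, 1, 0 and 0. The limma-voom fit called 1 for young LT-HSCs against ST-HSCs, 0 for young LT-HSCs against bulk-HSCs, 4 for aged LT-HSCs against ST-HSCs, 1 for aged LT-HSCs against bulk-HSCs and 1 for aged ST-HSCs against bulk-HSCs. Of all genes limma-voom called 7, 0, 66, 30 and 24 in these comparisons, in place of 55, 35, 1, 0 and 0. Leaving out both libraries that stood apart gave 2 for young LT-HSCs against ST-HSCs, beside 30 of all genes. With 1 library left out the count ran from 1 to 3 for young LT-HSCs against bulk-HSCs, from 0 to 1 for aged LT-HSCs against ST-HSCs and from 0 to 1 for the difference in age effect between LT-HSCs and bulk-HSCs. The cause of these moves was not tested. Signs turned for values that were not called: Pf4 with age in LT-HSCs (-2.85 with the detected genes as a covariate, -0.21 without both libraries, -0.20 to 1.38 with 1 library left out) and in ST-HSCs (-0.52 with the covariate), Gp1bb in bulk-HSCs (-1.84 with the covariate), Itga2b in bulk-HSCs (-0.13 to 0.35 with 1 library left out), and for young ST-HSCs against bulk-HSCs Selp (-1.26 to 0.10 with 1 library left out) and Itgb3 (-0.0094 with library size alone, -0.046 with limma-voom, -0.058 without both libraries, -0.060 to 0.11 with 1 library left out). Of 595 values of single genes under other fits 555 kept direction and side of the threshold, 12 lost and 23 gained a call and 5 changed sign. With 1 library left out these were 408, 10, 4 and 4 of 426. Whether the replicate numbers pair the libraries is not known, and the main fit treats them as unpaired. Same-numbered libraries deviated together with r between -0.04 and 0.13, over 0.1 in 2 of 18 pairs between fractions and 0 of 9 pairs between ages. Differently numbered pairs between fractions were over 0.1 in 0 of 36. Their median was -0.006, against 0.023 for same-numbered ones. Same-numbered LT-HSC and ST-HSC pairs had r of 0.015, 0.13 and 0.10 in young and 0.042, 0.051 and 0.085 in aged mice. Differently numbered ones ran from -0.12 to 0.04. The replicate block gave 3, 4 and 4 genes with age in LT-HSCs, ST-HSCs and bulk-HSCs, 4, 3 and 1 in the young and 1, 0 and 0 in the aged fraction comparisons and 0 in each test of a different age effect. Of all genes it called 77, 96 and 238 with age, 40, 16 and 2 in the young and 1, 0 and 0 in the aged fraction comparisons. Gp1bb, Pf4 and Clu were at 0 in 3, 2 and 1 young libraries, and the cause of these zeros was not tested.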
